A study of Mus musculus with 4 samples.

Results

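Translation factors are the proteins that help ribosomes start, extend and end a protein chain. Their transcripts were read on 4 Illumina bead arrays in NIH-3T3 cells, which are mouse fibroblasts that grow without limit. Fibroblasts that had been given microvesicles which cardiomyocytes in culture had released (2 arrays) were compared with control fibroblasts (2 arrays). Microvesicles are small membrane particles shed by cells, and the comparison addressed whether fibroblast gene expression differed after they had been transferred. The labels place fibroblasts of both groups in Claycomb medium and state neither the dose of microvesicles, nor the time of exposure, nor what the controls received. Nothing says that the replicates came from separate cultures. The p-values therefore cover the variation among these 4 samples, some or all of it possibly technical.

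The members were all probes whose gene symbol begins with Eif1 to Eif6, Eef1 or Eef2, or is Etf1, Gspt1, Pabpc1 or Tpt1. There were 101 such probes for 62 genes, out of 25697 probes for 16593 genes on the array. Of the 62 genes, 45 were assigned to initiation and its control, 10 to elongation, and 7 to termination and other roles. The last group holds 3 methyltransferases of the elongation factor eEF1A, which share the prefix but are not translation factors. No probe carried the symbol Eif2s1 or Eif4g1 in the annotation used.

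As background, initiation factors bring the small ribosomal subunit to the start codon of an mRNA. eIF2 carries the initiator tRNA, eIF2B recharges eIF2 with GTP, eIF3 is the large scaffold on the small subunit, and eIF4F binds the mRNA cap and unwinds the leader. Elongation factor eEF1A then delivers each aminoacyl-tRNA, the eEF1B subunits recharge eEF1A with GTP, and eEF2 moves the ribosome along by a codon. Many mRNAs of this family carry a tract of C and T at their 5′ end through which growth signals control their own translation, so that transcript levels need not follow protein output.

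The arrays were dim. A probe counted as detected where its deposited detection p-value was under 0.05, and it was kept where it was detected on both arrays of at least 1 group. Median raw brightness lay between 39.9 and 41.2, and 3757 to 5272 probes were detected per array. Microvesicle replicate 2 was the dimmest array and control replicate 2 the brightest, with 95th percentiles of raw brightness of 59.6 and 115. The translation factor probes followed this order. Before normalization, 31 of the 36 kept probes were lowest on microvesicle replicate 2 and 33 were highest on control replicate 2. All 4 arrays lay on 1 chip, each at its own position, and an effect of position cannot be told apart from one of group. What array brightness contributed to the results below was not tested. Of 9 fibroblast marker genes on the array, 5 were kept (Vim, Thy1, Col3a1, Sparc and Col1a2), and Col1a1 and Pdgfra were detected on no array. Of their 6 kept probes 1 was called, a probe of Sparc at a log2 fold change of 0.82 (limma adjusted p = 0.0469, 0.77 on its other probe), and Col1a2 was at -0.75 (adjusted p = 0.0528). Of 11 cardiomyocyte markers, 1 was kept (Tnnc1, log2 fold change 0.02) and 9, including Nppa and Actc1, were detected on no array. The 2 macrophage markers were detected on no array, and 0 of 4 endothelial markers were kept.

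Detection set which factors could be measured. Of the 101 probes, 53 were detected on no array, 28 on all 4, and 36 were kept, for 27 genes. On the microvesicle arrays 38 and 31 of the 101 probes were detected, against 36 and 44 on the control arrays. Another 28 genes were detected on no array. They include Eif4e, which encodes the cap-binding protein, Eif4b, Gspt1, which encodes the release factor eRF3a, Eif5b, the eEF2 kinase gene Eef2k and the eIF2 kinase genes Eif2ak1, Eif2ak3 and Eif2ak4. The remaining 7 genes (Eef1a2, Eif2s2, Eif3a, Eif3h, Eif5, Eif6 and Tpt1) were detected on some array but not kept. Tpt1 encodes an abundant growth-related protein, and its single probe had raw brightness of 43.8 and 38.7 with microvesicles, against 45.6 and 46.2 in controls. Only control replicate 2 detected it. Eif4e had 41.7 and 32.3 with microvesicles, against 34.6 and 37.5 in controls, and Gspt1 was level at 40.9 and 40.7 with microvesicles, against 40.9 and 40.1 in controls. Eif6, which encodes a factor that keeps ribosomal subunits apart, had 42.3 and 50.1 with microvesicles, against 45.3 and 47.3 in controls, and replicate 2 of each group detected it. On arrays this dim, such values do not show that a transcript was absent.

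Most of the translation factor transcripts that could be measured did not differ by the test. Values are log2 signals after background correction and quantile normalization, which gives all arrays the same distribution, and differences are microvesicles minus control. In RNA of whole cultures, a change in the make-up of the cells and a change in RNA per cell cannot be told apart. Group differences were tested with limma, with Benjamini-Hochberg adjustment over all 3762 kept probes and a threshold of 0.05. Of the 36 kept translation factor probes, 2 were higher, 0 lower and 34 did not pass. Over all kept probes 3.43% were called higher and 4.12% lower, 7.55% in all, so the 2 calls (5.56%) are near the background share. At an unadjusted p under 0.05 there were 7 of 36 (19.4%), against 24.8% of all kept probes. The median log2 fold change was -0.04, against -0.06 over all kept probes, and single changes lay between -0.78 and 0.80. Both microvesicle arrays lay above both controls in 8 probes (22.2%) and below in 7 (19.4%), against 24.9% and 32.7% of all kept probes.

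**Figure D1:**
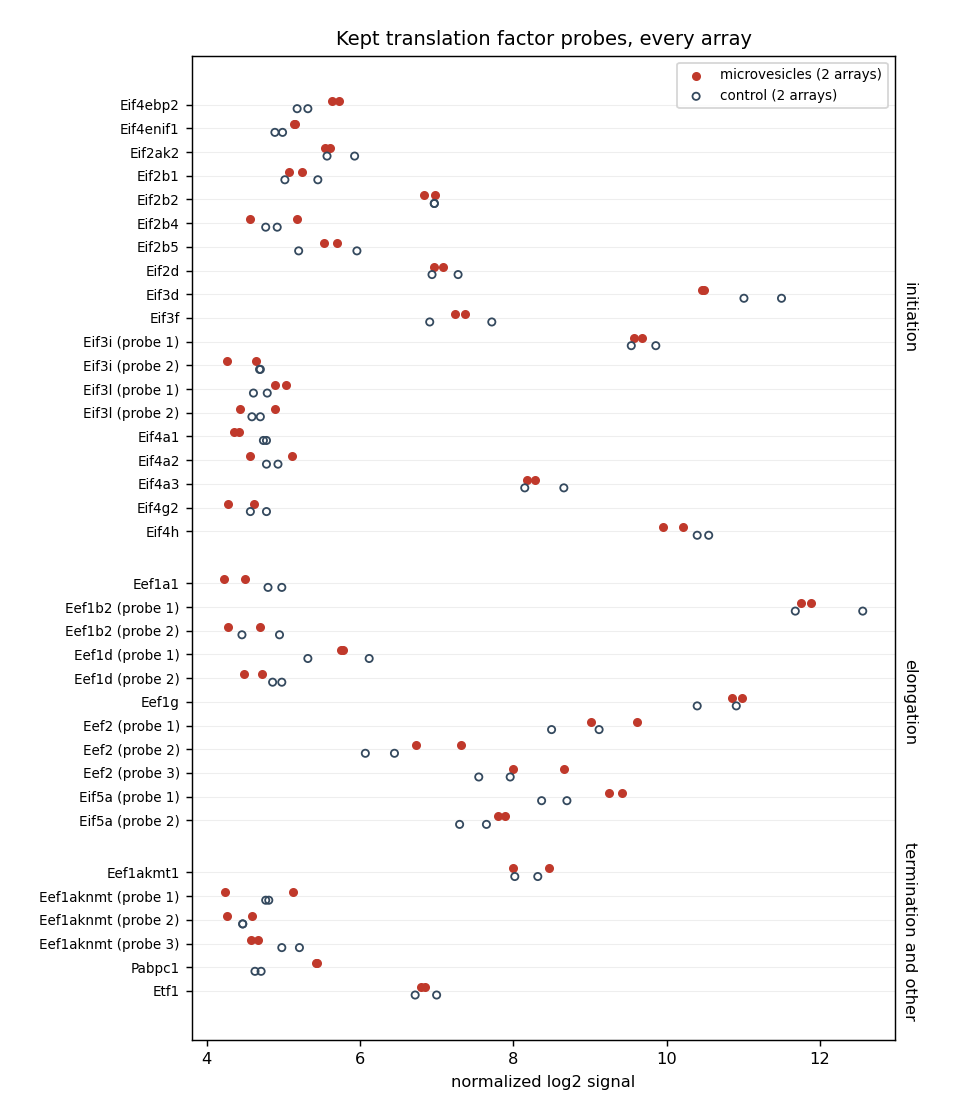
Normalized log2 signal (x axis) of the 36 kept probes on each array, filled for microvesicles and open for control, by role. Most pairs of groups overlap. Pabpc1, Eif5a and Eif3d are among the probes whose groups stand apart.

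Pabpc1 was higher in fibroblasts given microvesicles. It encodes the cytoplasmic poly(A)-binding protein, which coats the mRNA tail and binds eIF4G at the cap. Its kept probe (ILMN_2705407) read 5.43 and 5.44 with microvesicles, against 4.63 and 4.71 in controls. Both microvesicle arrays lay above both controls, with means of 5.43 ± 0.01 with microvesicles and 4.67 ± 0.05 in controls (SD, n = 2 each). The log2 fold change was 0.76 (SE 0.17, limma adjusted p = 0.0397), a 1.70-fold rise. It was 0.42 without background correction (limma adjusted p = 0.0634) and 0.38 with an offset of 50 (adjusted p = 0.0623), and passed in neither. The probe was near background. Its raw brightness was 64.1 and 53.3 with microvesicles, against 49.1 and 56.2 in controls, so that before normalization the groups overlapped, with bead standard errors of 2.52 to 3.27 over 33 to 51 beads. The other Pabpc1 probes were not kept. One was detected on no array, and the other (ILMN_1259482) on control replicate 2 alone, with raw brightness of 35.4 and 40.6 with microvesicles, against 39 and 52 in controls.

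Eif5a was higher on 1 of its 2 kept probes. It encodes eIF5A, the only protein known to carry hypusine, a modified lysine, which helps ribosomes through difficult peptide bonds and in termination. Probe 1 (ILMN_2678828) read 9.42 and 9.25 with microvesicles, against 8.37 and 8.70 in controls, with means of 9.34 ± 0.12 with microvesicles and 8.53 ± 0.23 in controls (SD, n = 2 each). The difference was 0.80 (SE 0.20, limma adjusted p = 0.0485), a 1.74-fold rise. Raw brightness was 624 and 362 with microvesicles, against 313 and 775 in controls, so that before normalization the groups overlapped. Probe 2 (ILMN_2686044) read 7.80 and 7.89 with microvesicles, against 7.30 and 7.65 in controls. As on probe 1, its normalized groups did not overlap, but the difference of 0.37 did not pass (adjusted p = 0.287). Within each array, probe 1 minus probe 2 was 1.62 and 1.36 with microvesicles, against 1.07 and 1.05 in controls, without overlap. Whether the probes changed unequally was not tested, and the 95% intervals of their differences overlapped (0.35 to 1.25 and -0.08 to 0.82). Set against Eef1g, probe 1 was at -1.43 and -1.74 with microvesicles, against -2.54 and -1.70 in controls, and the groups overlapped. The differences of Eef2 probe 1 and of Eef1b2 probe 1 from Eef1g overlapped too. These 4 pairs were chosen after values were seen. The related gene Eif5a2 was not detected.

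These calls depended on how the arrays were scaled, and that of Pabpc1 also on background correction and offset. With arrays scaled to a common median of the kept probes in place of quantile normalization, Pabpc1 was at 0.78 (adjusted p = 0.0775) and Eif5a probe 1 at 0.44 (adjusted p = 0.395). Another scaling aligned the median of all 25697 probes, of which 69.2% were detected on no array, so its reference was mostly undetected probes. With it the median of all kept probes moved to -0.39, and limma called 0 of 3762 probes (398 at an unadjusted p under 0.05). There Pabpc1 was at 0.34 and Eif5a probe 1 at -0.01. Relative to the median of all kept probes in that setting, Pabpc1 was 0.73 higher and Eif5a probe 1 was 0.38 higher. Pabpc1 did not pass in 10 of 15 alternatives, with its sign unchanged, and Eif5a probe 1 did not pass in 7 with the same sign and 1 with the opposite sign. Alternatives that changed only the filter, variance model, threshold or block refit the same normalized values, so the sign there was fixed. Leaving out any array ended both calls, with Pabpc1 between 0.63 and 0.85 and Eif5a probe 1 between 0.65 and 1.02.

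**Figure D2:**
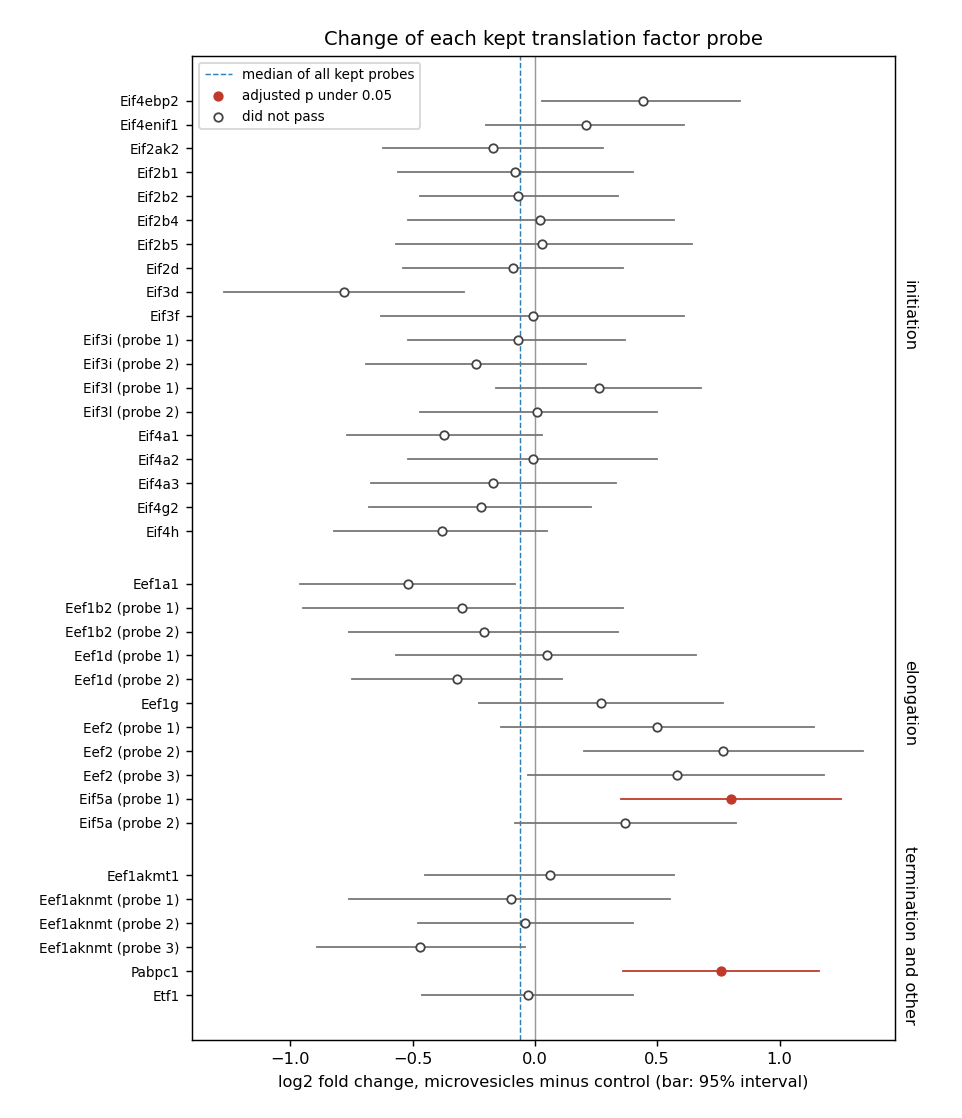
Log2 fold change (x axis, microvesicles minus control) with its 95% interval for the 36 kept probes. Filled points passed at an adjusted p under 0.05 (Pabpc1 at 0.76 and Eif5a probe 1 at 0.80), open points did not, and the dashed line marks the median of all kept probes at -0.06.

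In elongation, transcripts for eEF2 and eEF1A had fold changes of opposite sign, and neither passed. Eef2 encodes the GTPase of translocation and had 3 kept probes. Probe 1 read 9.61 and 9.01 with microvesicles, against 8.50 and 9.12 in controls, and the groups overlapped. Probe 2 read 7.32 and 6.73 with microvesicles, against 6.07 and 6.45 in controls. Probe 3 read 8.66 and 8 with microvesicles, against 7.55 and 7.96 in controls. On all 3 probes microvesicle replicate 1 was the highest array and control replicate 1 the lowest. The log2 fold changes were 0.50 (adjusted p = 0.302), 0.77 (adjusted p = 0.105) and 0.58 (adjusted p = 0.219) for probes 1, 2 and 3. Scaled to the median of all probes they were -0.29, -0.08 and -0.35, so their sign was not settled, although there they lay 0.10, 0.31 and 0.04 above the median of all kept probes. Probe 2 passed in 2 of 15 alternatives, with trend and robust estimation (adjusted p = 0.0219) and with a crossed replicate block (adjusted p = 0.0342).

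Before normalization the arrays stood in another order for Eef2. Probe 1 had 719 and 309 with microvesicles, against 341 and 1017 in controls. Microvesicle replicate 2 was thus the dimmest array for this gene and control replicate 2 the brightest. Probes 2 and 3 had the same order of arrays.

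**Figure D3:**
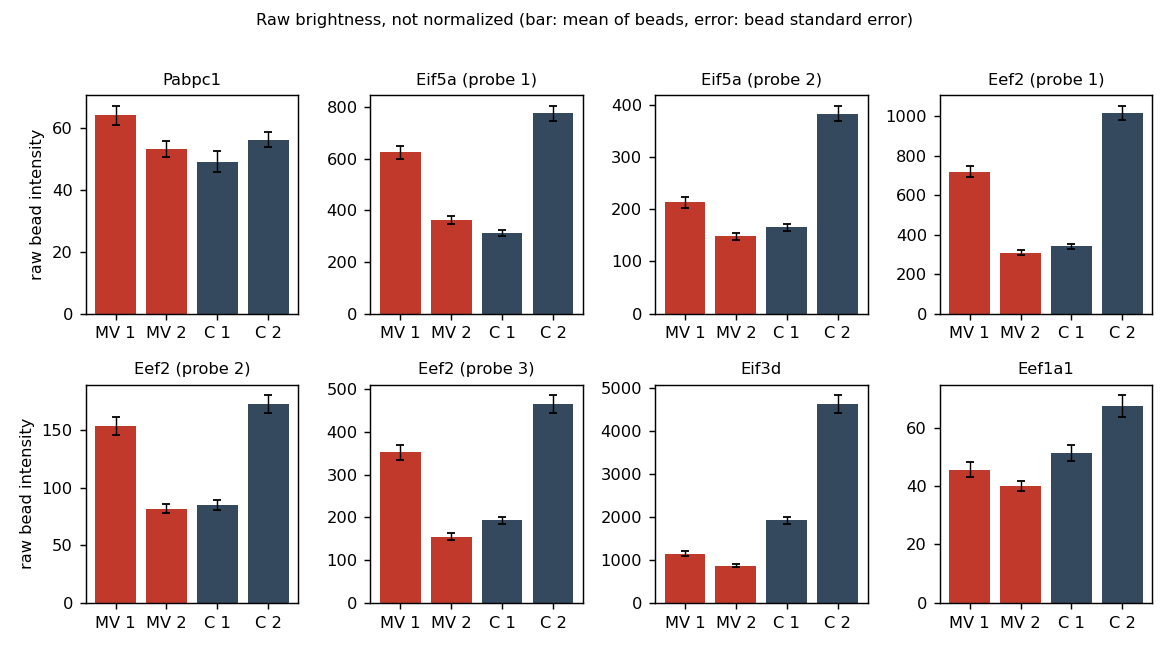
Raw bead intensity (y axis, from 0), not normalized, on each array for 8 probes, with MV for microvesicles and C for control. Bars are bead means and error bars are bead standard errors. Control replicate 2 is the brightest array for every probe shown but Pabpc1.

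Eef1a1 encodes the main eEF1A, whose mRNA is known as among the most abundant in growing cells, yet its single probe (ILMN_1244894) was close to background. It read 4.50 and 4.23 with microvesicles, against 4.80 and 4.98 in controls. The groups did not overlap, but only 1 of the microvesicle arrays detected it, and the difference of -0.52 did not pass (SE 0.19, adjusted p = 0.14). Its sign was the same in all alternatives that kept the probe (-0.69 to -0.22), those that refit the same normalized values included. Eef1a2, the eEF1A form of muscle and neurons, was not kept on any of its 3 probes.

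The eEF1B subunits, which exchange nucleotide on eEF1A, gave small differences of both signs. Eef1g, for the gamma subunit, read 10.85 and 10.99 with microvesicles, against 10.91 and 10.40 in controls, a difference of 0.27 with overlapping groups. Eef1b2, for the beta subunit, read 11.89 and 11.76 on probe 1 with microvesicles, against 11.68 and 12.56 in controls, with control replicate 2 alone standing high. That gave -0.30 (95% interval -0.95 to 0.36), and its dim probe 2 gave -0.21. For Eef1d, of the delta subunit, probe 1 was at 0.05, and the dim probe 2 read 4.72 and 4.49 with microvesicles, against 4.98 and 4.86 in controls (-0.32). None of these 5 probes passed. Over the 11 kept elongation probes the median was 0.27, with 7 above 0 and 4 below, against a median of -0.07 over the 19 kept initiation probes, with 6 above 0 and 13 below. Of the 11, 5 belong to Eef2 and Eif5a, so these are not 11 separate genes. Eef1a1 and the dim probes 2 of Eef1b2 and Eef1d were kept through the control arrays alone, which favours a negative difference. So were Eif3i probe 2, Eif4a1 and Eif4g2 in initiation. Among probes detected on all 4 arrays the medians were 0.43 for elongation and -0.04 for initiation. The order depended on scaling, with medians of -0.51 for elongation and -0.49 for initiation on scaling to the median of all probes. On scaling to that of the kept probes they were -0.07 for elongation and -0.04 for initiation.

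Among initiation factors 0 of 19 kept probes passed, with 2 at an unadjusted p under 0.05. In eIF3, 6 probes for 4 of the 12 genes on the array were kept. Eif3d, whose product can bind the cap of selected mRNAs, had the lowest fold change of any member. It read 10.46 and 10.49 with microvesicles, against 11.01 and 11.50 in controls. Means were 10.48 ± 0.02 with microvesicles and 11.26 ± 0.35 in controls (SD, n = 2 each). The groups did not overlap, and the raw brightness of 1144 and 861 with microvesicles, against 1918 and 4618 in controls, did not overlap either. The difference was -0.78 (SE 0.21, 95% interval -1.27 to -0.29) and narrowly missed the threshold (limma adjusted p = 0.0664). Eif3d was lower in all 15 alternatives, between -1.57 and -0.56, though those that refit the same normalized values could not change its sign. It passed in 5 of them. Among these were scaling to the kept-probe median (-1.12, adjusted p = 0.0043), no background correction (adjusted p = 0.0324) and testing only probes detected on all 4 arrays (adjusted p = 0.0355).

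The other kept eIF3 subunits had smaller differences. Eif3i, a WD-repeat subunit, read 9.68 and 9.58 on probe 1 with microvesicles, against 9.54 and 9.86 in controls, a difference of -0.07. Within each array Eif3d minus Eif3i probe 1 was 0.78 and 0.92 with microvesicles, against 1.48 and 1.64 in controls, a difference of -0.71 between the groups. With no normalization between arrays it was -0.80, and the groups did not overlap. This pair was chosen after its values were seen, and with 2 arrays a group the smallest two-sided p of an exact permutation test is 0.333. Eif3f, a scaffold subunit, read 7.24 and 7.37 with microvesicles, against 7.72 and 6.91 in controls, so that the controls differed more from each other than from the other group (-0.01, 95% interval -0.63 to 0.61). Eif3l, a subunit of the eIF3 core, read 5.04 and 4.89 on probe 1 with microvesicles, against 4.79 and 4.61 in controls, without overlap but also without passing (0.26, adjusted p = 0.398). On probe 2 it was at 0.01. The dim probe 2 of Eif3i was at -0.24.

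Sequence around the annotated start of these genes is shown because of the C and T tract for which mRNAs of this family are known. A window of 30 bases, 15 on each side of the RefSeq start in GRCm38.p6, was found for 20 of the 27 kept genes, 28 windows in all. A tract of at least 10 unbroken C or T, on the strand with the sequence of the mRNA, was in 5 of the 28 windows (17.9%). The share was 5.34% of 32851 windows of all genes. The 5 tracts were in 5 of the 20 genes, and windows of 1 gene are not independent (6 were of Eif5a and 4 of Eif4enif1). On the opposite strand it was in 1 of 28, against 5.80%. A tract counted wherever it lay in the window. Bases before the annotated start, such as most of the capitals of Eif2b5, need not be in the mRNA. The tracts are in capitals.
Eif3f: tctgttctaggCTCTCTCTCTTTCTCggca
Eif3l: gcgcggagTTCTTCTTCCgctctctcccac
Eif2b5: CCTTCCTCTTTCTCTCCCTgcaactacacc
Eef1a1: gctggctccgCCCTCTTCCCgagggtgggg
Eif3d: gtggtagggccatttacgacagcgctggtc
Eef2: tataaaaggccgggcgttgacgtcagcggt
The windows lie at chr7:108934400-108934429 (plus strand, Eif3f), chr15:79075208-79075237 (plus, Eif3l), chr16:20498802-20498831 (plus, Eif2b5), chr9:78481710-78481739 (minus, Eef1a1), chr15:77970810-77970839 (minus, Eif3d) and chr10:81176616-81176645 (plus, Eef2). The fifth tract was at 1 of the 4 starts of Eif4enif1. Eif3d and Eef2 hold none in this window, nor does any of the 6 starts of Eif5a, and Pabpc1 had no entry. Annotated starts can lie some bases from the used start, so a window without a tract does not show that the mRNA lacks one. Tracts were found both beside fold changes near 0 (Eif3f -0.01, Eif2b5 0.03) and beside differences of either sign that did not pass (Eef1a1 -0.52, Eif4enif1 0.21, and Eif3l 0.26 and 0.01 on its probes).

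The eIF2B exchange factor gave values near 0 under quantile normalization. All 4 of its genes on the array were kept on 1 probe each, with fold changes from -0.08 to 0.03 and 0 of 4 passing. Eif2b2, of the beta subunit, read 6.83 and 6.98 with microvesicles, against 6.97 and 6.97 in controls (-0.07, 95% interval -0.47 to 0.34). Eif2b1 (-0.08), Eif2b4 (0.02) and Eif2b5 (0.03) had intervals that together ran from -0.57 to 0.64, so changes within that range are not excluded. On scaling to the kept-probe median the 4 lay between -0.45 and 0.13, and on scaling to the all-probe median between -0.89 and -0.32. Of the kinases that phosphorylate eIF2, only Eif2ak2, which encodes the double-stranded RNA sensor PKR, was kept. It read 5.61 and 5.55 with microvesicles, against 5.57 and 5.93 in controls, a difference of -0.17 (adjusted p = 0.60). Eif2d, which encodes a factor of initiation and recycling apart from eIF2, was at -0.09.

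In the group of eIF4F, its helpers and relatives, all 5 kept probes had negative fold changes under quantile normalization, from -0.38 to -0.01, and 0 passed. Eif4a1 and Eif4g2 were kept through the control arrays alone, which favours a negative difference, so the shared sign is not read as a result. Eif4h, which encodes a stimulator of the eIF4A helicase, read 10.22 and 9.96 with microvesicles, against 10.40 and 10.55 in controls. Its groups did not overlap (-0.38, adjusted p = 0.251). It was negative in all 15 alternatives (-1.17 to -0.25), those that refit the same normalized values included. Eif4a1, for the main helicase, read 4.42 and 4.36 with microvesicles, against 4.78 and 4.74 in controls. Neither microvesicle array detected it. With the lowest signal of detected probes, or its own where higher, in their place it was 1.23-fold lower under quantile normalization. That value is not a firm bound, since the fitted difference had a 95% interval of -0.77 to 0.03 (limma adjusted p = 0.23). The fitted difference of -0.37 was -0.20 without background correction, -0.15 with an offset of 50 and -0.04 on scaling to the kept-probe median. Its size thus holds for the reported setting alone. The other probe of Eif4a1, detected on no array, read 4.39 and 4.33 with microvesicles, against 4.19 and 4.26 in controls. Eif4a2, a close relative of Eif4a1, was at -0.01, and Eif4g2, which encodes a cap-independent relative of the scaffold, at -0.22. On scaling to the kept-probe median Eif4a2 was at 0.24 and Eif4g2 at 0.17. Eif4a3, whose product marks exon junctions, read 8.18 and 8.29 with microvesicles, against 8.15 and 8.66 in controls (-0.17).

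The proteins that hold back eIF4E gave positive differences that did not pass. Eif4ebp2, a 4E-BP that releases eIF4E when phosphorylated by mTORC1, read 5.64 and 5.73 with microvesicles, against 5.32 and 5.18 in controls. Its groups did not overlap (0.44, SE 0.18, adjusted p = 0.175), and it was at -0.10 on scaling to the median of all probes. Eif4enif1, which encodes a carrier of eIF4E into the nucleus, was at 0.21. Eif4ebp1 and Eif4ebp3 were detected on no array.

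For termination, Etf1, which encodes the release factor eRF1 that reads stop codons, read 6.85 and 6.80 with microvesicles, against 7 and 6.72 in controls (-0.03, 95% interval -0.46 to 0.40). Of the eEF1A methyltransferases, Eef1akmt1 read 8 and 8.46 with microvesicles, against 8.02 and 8.32 in controls (0.06). Eef1aknmt read 5.13 and 4.24 on probe 1 with microvesicles, against 4.81 and 4.77 in controls (-0.10), so that the microvesicle replicates differed more than the groups. It was at -0.04 on probe 2 and at -0.47 on probe 3, which read 4.58 and 4.67 with microvesicles, against 4.98 and 5.21 in controls (adjusted p = 0.164).

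**Figure D4:**
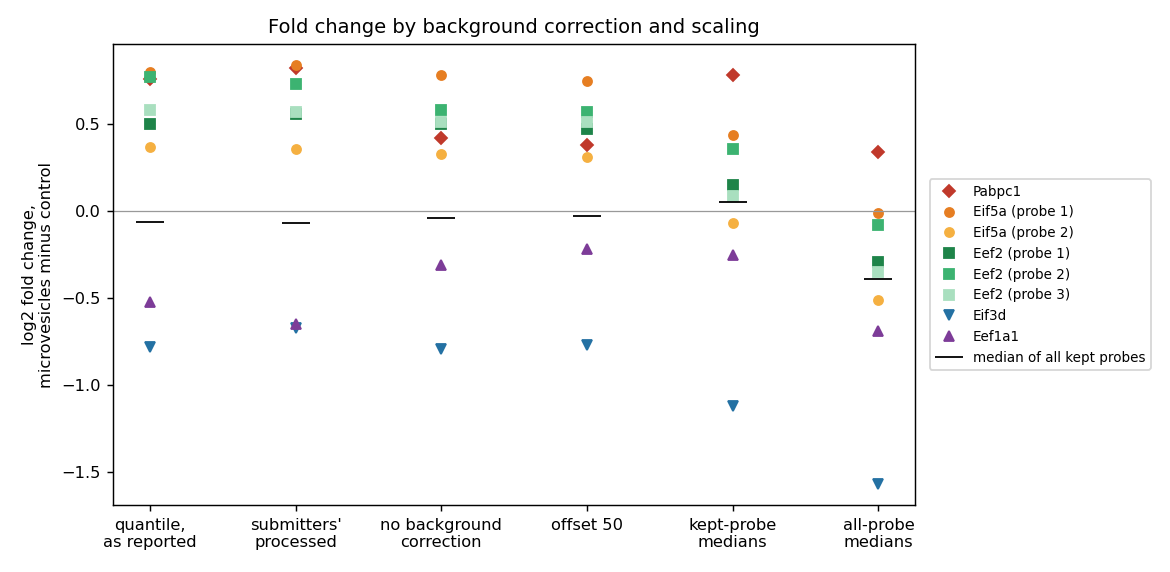
Log2 fold change (y axis, microvesicles minus control) of 8 probes under 6 ways of background correction and scaling, with the median of all kept probes as a bar. Eif3d and Eef1a1 lie below 0 and Pabpc1 above 0 in all 6, while the Eif5a and Eef2 probes lie between -0.51 and -0.01 on scaling to the all-probe median.

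Over 7 lists of genes of translation and its control, which share Eif2d with the members, 2 of 30 kept probes were called (6.67%). This is near the background share of 7.55%. In mTORC1 and translation control, 7 of 13 genes on the array were kept and 0 of 9 probes passed, with a median of -0.17. Differences reached -0.59 on 1 probe of Mlst8 (0.17 on its other probe) and -0.59 on 1 probe of Tsc2 (-0.19 on its other). Both Tsc2 probes and that of Ddit4 were kept through the control arrays alone, which favours a negative difference. In the stress response downstream of eIF2, 4 of 13 genes were kept, 1 of 4 probes was higher, and the median was 0.43. The higher one was Ddit3, a transcription factor gene, with 8.37 and 8.34 with microvesicles, against 7.64 and 7.60 in controls (0.73, limma adjusted p = 0.0445). On scaling to the median of the kept probes it was at 0.22 and did not pass, and on scaling to that of all probes at -0.22, which is 0.17 above the median of all kept probes in each case. Ddit3 did not pass in 9 of 15 alternatives with the same sign and in 1 with the opposite sign. Its other probe was detected on no array. Trib3 (0.53), Ppp1r15a (0.25) and Vldlr (0.33, 95% interval -0.10 to 0.76) did not pass, and Atf4 was not kept. Trib3 and Vldlr were kept through the microvesicle arrays alone, which favours a positive difference. The median of this list is thus not read as a result. No control array detected the kept Vldlr probe. Among cytosolic aminoacyl-tRNA synthetases and their partners, 9 of 21 genes were kept and 1 of 12 probes passed, lower, with a median of -0.07. This was 1 probe of Vars, the valyl-tRNA synthetase gene, with 6.07 and 6.62 with microvesicles, against 7.39 and 7.51 in controls (-1.10, limma adjusted p = 0.0288), while its other kept probe was at -0.10. The lower probe was negative in all 15 alternatives (-1.91 to -0.85), those that refit the same normalized values included. It did not pass in 7 of them, among them no detection filter (adjusted p = 0.266), scaling to the median of all probes (adjusted p = 0.444) and leaving out any array.

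The remaining lists gave 0 calls. In poly(A) binding, Pabpc4, a relative of Pabpc1, was at -0.74 (adjusted p = 0.156) and the nuclear Pabpn1 at 0.53 (adjusted p = 0.166). In ribosome recycling Denr was at 0.05, beside Eif2d. Of the mitochondrial translation factors only Tufm, which encodes the mitochondrial counterpart of eEF1A, was kept. It read 9.09 and 9.28 with microvesicles, against 9.64 and 9.81 in controls, a difference of -0.54 without overlap (adjusted p = 0.119). The genes that make hypusine and diphthamide, the modified residues of eIF5A and eEF2, had 0 of 6 kept.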

How the data were processed

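Per the labels, amplified RNA carrying Cy3 was hybridized to Illumina bead arrays. The authors' processing notes name BeadStudio 3.3. The deposited raw table holds intensity values (bead means, no background subtracted, not normalized), detection p-values against negative controls, bead numbers and bead standard errors. The deposited processed intensity values, background-subtracted by a method not given in the sources used here, served as an alternative.

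Background was corrected with neqc of limma 3.58.1 (R 4.3.3), which used the detection p-values, an offset of 16 and quantile normalization before log2. The offset compresses changes of dim probes. The detection filter kept 3762 of 25697 probes (14.6%). Differences were tested with lmFit and eBayes, group as the only term, two-sided. The number of arrays limits precision.

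Platform annotation gave 1 symbol for 23978 probes and none for 1719, and all 62 member genes matched RefSeq by Entrez identifier. Named were the probes that passed, the 2 highest and 2 lowest fold changes of each class, a set of 12 factors, all probes of genes with several, and other kept members by value. Members, classes and lists were chosen with earlier results of these data known. The fit was tested on simulated data. Alternatives were other background correction, offset, scaling, filter, variance model and threshold, a replicate block, and leaving out each array.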

Additional observations from a re-analysis of the deposited data

How the results depend on the processing

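Both calls, Pabpc1 and Eif5a probe 1, were lost under both median scalings. In all, 284 probes were called. The count was 67 at adjusted p under 0.01, 0 on scaling to the all-probe median, 593 under trend and robust estimation, 29 when no probe was filtered, and 0 to 10 when 1 array was left out. On scaling to the kept-probe median, calls split into 76 higher and 277 lower, against 129 and 155 in the reported fit. Of the translation factors, 2 probes were called (2 higher, 0 lower). There were 0 at adjusted p under 0.01, on scaling to the all-probe median, when no probe was filtered, and with any array left out. There was 1 with an offset of 50 (1 higher, 0 lower) and 1 on scaling to the kept-probe median (0 higher, 1 lower). There were 2 with no background correction (1 higher, 1 lower), 3 among probes detected on all 4 arrays (2 higher, 1 lower) and 4 under trend and robust estimation (3 higher, 1 lower). The member in the lower direction was Eif3d each time. The member median was -0.51 on scaling to the all-probe median. The cause of these moves was not tested, apart from the smaller or larger number of probes and arrays that some settings enter. With the submitters' processed values the same 2 probes were called. Calls with 1 array left out set 2 samples against a lone one, assumed to vary like the others.

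With the replicate number as a block 313 probes and 2 translation factor probes were called, and neither member call changed, while Ddit3 did not pass (adjusted p = 0.0567). The labels do not say that a number marks a batch, and deviations of same-numbered arrays correlated with r = -0.133 over 3762 probes. A block with crossed numbers, chosen after seeing the data, called 396 probes and 4 translation factor probes (3 higher, 1 lower).

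Sign changes among probes that did not pass, and of Eif5a probe 1 and of Ddit3, came with the scaling and with leaving out an array. On scaling to the all-probe median, fold changes were -0.52 for Eef1d probe 1, -0.62 for Eef1g, -0.29, -0.08 and -0.35 for Eef2 probes 1 to 3, -0.01 and -0.51 for Eif5a probes 1 and 2, -0.10 for Eif4ebp2, -0.21 for Eif4enif1, -0.32 for Eif2b4, -0.60 for Eif2b5, -0.20 for Eif3l probe 2, -0.22 for Ddit3 and -0.87 for Eef1akmt1. On scaling to the kept-probe median they were -0.08 for Eef1d probe 1, -0.17 for Eef1g, -0.07 for Eif5a probe 2, -0.15 for Eif2b5, 0.09 for Eif3i probe 2, 0.24 for Eif4a2, 0.17 for Eif4g2, -0.42 for Eef1akmt1, and 0.21 and 0.35 for Eef1aknmt probes 1 and 2. The submitters' values gave 0.02 for Eif3i probe 1. With 1 array left out, signs changed for Eef1b2 (-0.79 to 0.17 on probe 1, -0.48 to 0.01 on probe 2), Eef1d probe 1 (-0.32 to 0.46), Eif2b1 (-0.25 to 0.14), Eif2b2 (-0.14 to 0.01), Eif2b4 (-0.33 to 0.33), Eif2b5 (-0.34 to 0.35), Eif2d (-0.26 to 0.08), Eif3f (-0.42 to 0.39), Eif3i probe 1 (-0.23 to 0.10), Eif3l probe 2 (-0.25 to 0.25), Eif4a2 (-0.29 to 0.29), Eif4a3 (-0.45 to 0.08), Etf1 (-0.18 to 0.11), Eef1akmt1 (-0.17 to 0.29) and Eef1aknmt probes 1 (-0.57 to 0.39) and 2 (-0.21 to 0.14). Pabpc1 was positive and Eif3d, Eef1a1, Eif4a1, Eif4h, Eef1d probe 2 and Eef1aknmt probe 3 were negative in every alternative that tested them. Alternatives of filter, variance model, threshold and block could not change a sign, since they refit the same normalized values. Of the 101 probes 53 were detected on no array, against 69.2% of all probes on the array, and low signal cannot be told apart from lack of expression there.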
